A study of Homo sapiens with 12 samples.

Results

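FOXA1 occupancy was compared between LNCaP cells given EPZ-6438 and P5091 together and LNCaP cells given DMSO, the solvent of the compounds. The comparison uses 4 of the 12 chromatin immunoprecipitation sequencing (ChIP-seq) libraries of the series, chosen by their treatment labels: 2 of the combination (1 µM EPZ-6438 with 3 µM P5091) and 2 of DMSO, all after 7 days and with an antibody against endogenous FOXA1. The DMSO libraries carry "DMO" in their treatment entry and DMSO in their titles. The 4 libraries of the single compounds at the same doses, 2 with EPZ-6438 and 2 with P5091, and the 4 libraries made with an antibody against the HA tag serve only for side values. LNCaP is an established human prostate cancer cell line that responds to androgen, and the labels name no transgene or hairpin for the 8 FOXA1 libraries. Nothing in the labels says that replicates 1 and 2 came from separate cultures, and p-values here speak only for the spread between libraries, which may be technical.

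FOXA1 is a forkhead transcription factor that binds enhancers in closed chromatin and opens them for other factors, in prostate cells above all for the androgen receptor. EZH2, the target of EPZ-6438 (tazemetostat), is the methyltransferase subunit of a Polycomb repressive complex. USP7, the target of P5091, is a deubiquitinase that removes ubiquitin from proteins and so can spare them from the proteasome. The title of the series places both proteins in the control of FOXA1 protein stability. The comparison therefore asks whether FOXA1 binding to chromatin differs when both are inhibited. FOXA1 protein was not measured here.

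Each library has its own peak list, and each peak has a normalized tag count, its reads ("tags") per 1e7 tags of the library. Peaks of the 4 libraries that shared at least 1 base were merged into 114557 regions with a median width of 365 bases. All positions are in the human genome build hg19. Genes and sequences at these regions were not analysed here. Differences are given on the scale of log2 (tag count + 1), combination minus DMSO, which understates the change of weak regions.

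The 2 combination libraries did not look alike. Replicate 1 of the combination had 30811 peaks and replicate 2 had 83194, against 70809 and 81511 peaks in DMSO replicates 1 and 2. The share of all tags that lay inside peaks was 5.26% and 20.16% in combination replicates 1 and 2, against 20.94% and 19.66% with DMSO. The other 7 FOXA1 libraries of the series had 68504 to 84423 peaks and 18.86 to 21.2% of tags in peaks, so combination replicate 1 stood apart from every one of them. Its sequencing was not shallow, with 15999804 tags, against 12672030 in combination replicate 2 and 13674684 and 17225421 in the DMSO libraries. The threshold that the peak caller stated for it was 11 tags, as in both DMSO libraries, and 10 in combination replicate 2. Deposited values can lie slightly below it, such as 7.31 in DMSO replicate 1, where 11 tags are 8.04 normalized tags.

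Over its whole list, the peaks of combination replicate 1 were as compact as the others, but at common regions they were slightly less so. The share of a peak's tags that lie on the expected sides of its centre, which the peak caller gives for every peak, had a median of 0.867 and 0.867 in the combination libraries, against 0.868 and 0.868 with DMSO. At the 26272 regions called in all 4 libraries it was 0.872 and 0.895 with the combination, against 0.9 and 0.9 with DMSO. In combination replicate 1, 17.2% of putative peaks were removed for too little excess over input DNA, against 6.78% in replicate 2, 11.5% in DMSO replicate 1 and 11.7% in DMSO replicate 2. The same input was named for both combination libraries. Whether the low enrichment of this library came from the treatment or from its preparation was not tested, and with 1 such library the 2 cannot be told apart. Each result below is given by replicate, or with and without combination replicate 1.

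The common regions were also FOXA1 sites by another antibody, used in LNCaP cells that carry a short hairpin against FOXA1 and an HA-tagged FOXA1. Of the 26272 regions called in all 4 libraries, 89.5% overlapped a peak of HA-tagged wild-type FOXA1 and 88.6% a peak of HA-tagged FOXA1 with the K295A substitution, 1 HA library each. The share that overlapped a peak of the HA antibody in cells with the pGIPZ control was 0.0495%.

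At the regions called in all 4 libraries, FOXA1 signal was lower with the combination in replicate 1 and level in replicate 2. The median tag count was 14.4 and 34.7 in combination replicates 1 and 2, against 38.0 and 34.3 in DMSO replicates 1 and 2. Combination replicate 1 lay below the other 3 libraries, which lay close to each other. The median fold over input, the peak caller's own ratio, was lowest in the same library, with 16.6 and 38.85 in the combination libraries, against 30.9 and 35.04 with DMSO. The difference of the library medians was -1.34 in replicate 1 and 0.016 in replicate 2, with a mean of -0.66 over both.

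An exact two-sided permutation test of these medians gave p = 0.667, and 2 libraries against 2 cannot give a p below 0.333. Without combination replicate 1 the median difference over regions called in the other 3 libraries was -0.056. The log2 difference in peak number was -1.20 in replicate 1 and 0.029 in replicate 2 (mean -0.59, exact permutation p = 1), and 0.13 without combination replicate 1. For the percentage of tags in peaks, the difference was -15.68 points in replicate 1 and 0.50 points in replicate 2 (exact permutation p = 0.667). Peaks of DMSO replicate 1 were called 365 bases wide, against 279 and 274 bases in the combination libraries and 289 in DMSO replicate 2. Expressed per 300 bases of peak, the median difference in replicate 1 was -0.97.

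**Figure D1:**
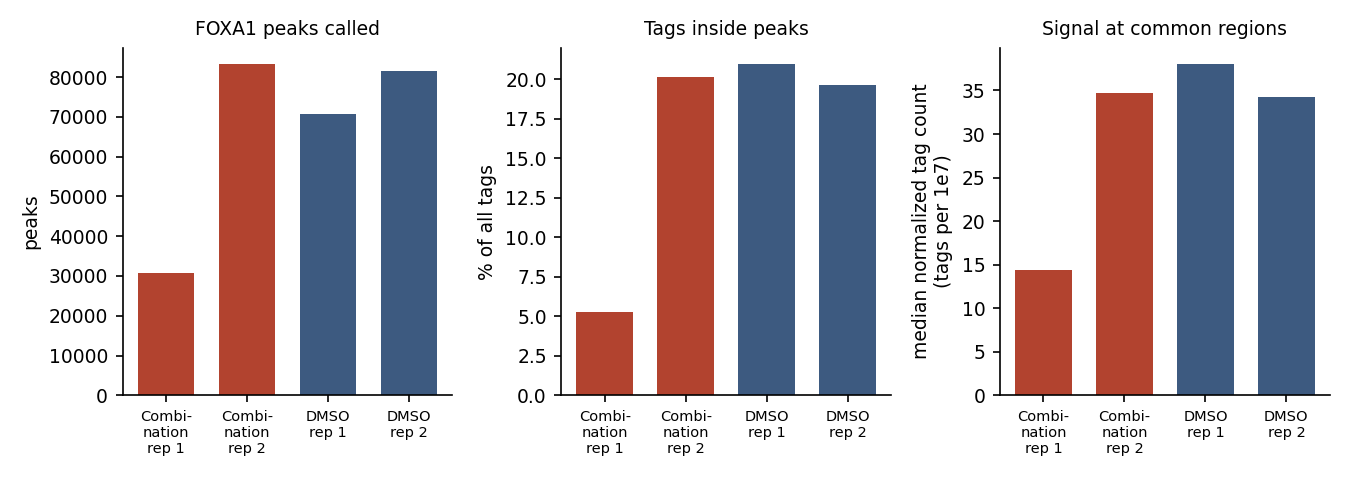
Bars give 1 library each: peaks called, tags inside peaks (% of all tags) and the median normalized tag count over the 26272 common regions (tags per 1e7). Combination replicate 1 is at 30811 peaks, 5.26% and 14.4, while combination replicate 2 and both DMSO libraries lie together in each panel.

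Seen region by region, the lower signal in replicate 1 was spread over nearly all common regions. In replicate 1 the combination was lower at 25626 of 26272 regions and at least 2-fold lower at 18106, with 3 regions at least 2-fold higher. The median difference was -1.31 with quartiles of -1.69 and -0.88. In replicate 2 the median difference was -0.023 with quartiles of -0.37 and 0.34, and 943 regions were at least 2-fold higher and 800 at least 2-fold lower. Both combination libraries were below both DMSO libraries, as deposited, at 41.9% of the common regions and above both at 0.757%. By chromosome the median difference ran from -1.41 on chromosome 16 to -1.23 on chromosome X in replicate 1 and from -0.15 on chromosome 22 to 0.018 on chromosome 4 in replicate 2.

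To compare regions within a library, each library was also centred, that is, its median over the 26272 regions was subtracted. Centring removes a shift that all regions share, but not a difference between libraries in the spread of their values. The SD of the log2 values over regions was 0.66 and 0.82 in combination replicates 1 and 2, against 0.92 and 0.91 with DMSO. A site can thus have a centred difference and keep its rank. The site chr2:242032793-242033157 had the highest tag count of each of the 4 libraries and a centred difference of -0.70. The part of the unequal spread in the centred differences was not tested. The spread of the centred differences was similar in both replicates, with an SD over regions of 0.603 in replicate 1 and 0.542 in replicate 2. The 2 DMSO libraries differed from each other with an SD of 0.501, and the 2 combination libraries with an SD of 0.509. In replicate 1, 1870 regions were at least 2-fold higher (7.12%) and 735 at least 2-fold lower (2.80%), and in replicate 2, 896 were higher (3.41%) and 858 lower (3.27%).

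**Figure D2:**
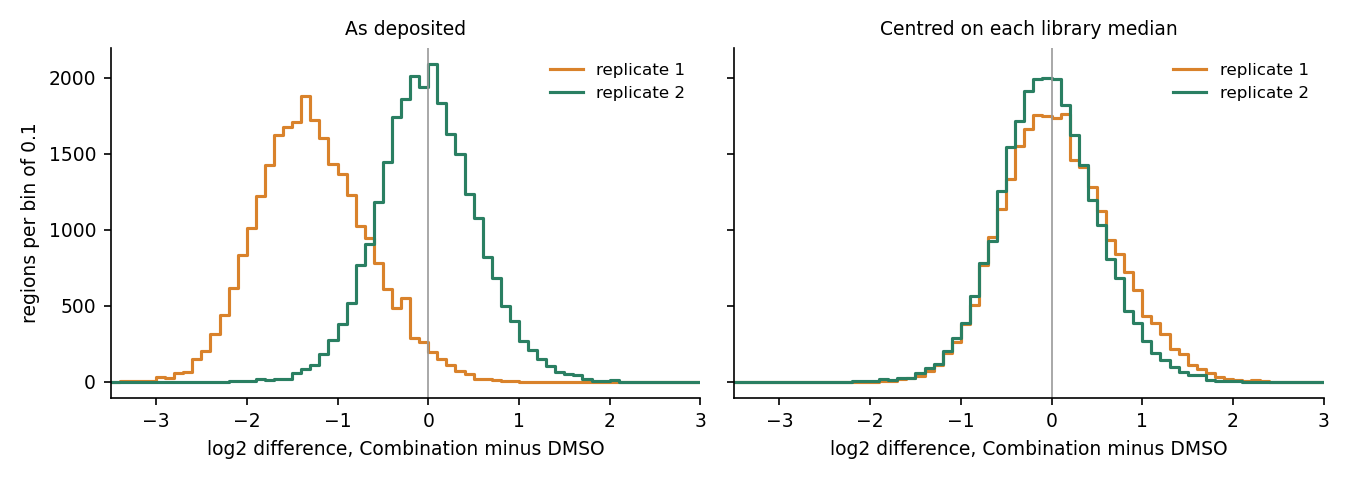
Histograms of the log2 difference (combination minus DMSO, bins of 0.1) over the 26272 regions called in all 4 libraries, replicate 1 in orange and replicate 2 in green, as deposited on the left and centred on the right. As deposited, replicate 1 peaks near -1.31 and replicate 2 near -0.023; centred, both curves lie on 0 with SDs of 0.603 and 0.542.

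The stronger a FOXA1 site, the more often the combination libraries kept its peak. Site strength was read from libraries outside the comparison: the 39382 regions with a peak in both DMSO libraries and in all 4 single-compound libraries were split into 10 strength groups of equal size by their mean tag count in the single-compound libraries. In the weakest group, with a median of 13.6 tags, combination replicate 1 called 13.8% of regions and replicate 2 called 78.6%. In group 5, with a median of 25.5 tags, the shares were 58.1% and 98.1%. In the strongest group, with a median of 90.1 tags, they were 99.8% and 99.9%. Since every region had a DMSO peak by construction, no share is given for DMSO.

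Signal at the strongest sites was lower with the combination in both replicates. In the strongest group the median difference, as deposited, was -1.62 in replicate 1 and -0.19 in replicate 2, and centred it was -0.28 and -0.20. Side by side with the single compounds, the 2418 strongest of 24175 regions were taken. The 24175 are the common regions that overlapped a peak in each of the 4 single-compound libraries. Among the 2418, the median centred difference from DMSO in replicates 1 and 2 was -0.28 and -0.22 for the combination. It was -0.041 and -0.20 for EPZ-6438 and 0.039 and -0.11 for P5091, all against the same DMSO libraries. In the weakest strength group the median difference was -0.68 and 0.11 as deposited, and 0.66 and 0.077 centred. Medians as deposited cover the regions called in that combination library, 542 and 3096 in the weakest group for replicates 1 and 2. Centred medians cover only the regions called in all 4 libraries. The centred medians of replicate 1 decreased from group to group over the whole range, and those of replicate 2 from group 3 on. The weak groups of replicate 1 hold only the regions that passed the calling threshold of 6.88 normalized tags in that library: 453 regions of the weakest group were called in all 4 libraries, against 3929 of the strongest. A region under that threshold has no value in this library and does not enter the medians.

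**Figure D3:**
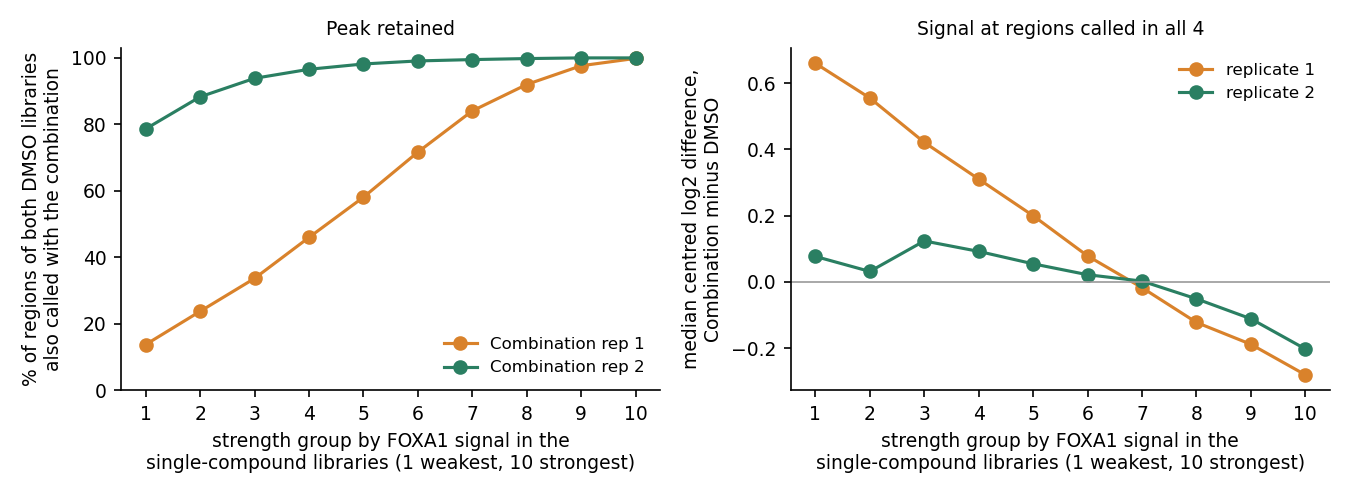
Left, the percentage of regions (called in both DMSO and all 4 single-compound libraries) that were also called in combination replicate 1 (orange) and 2 (green), by strength group (1 weakest, 10 strongest) in the single-compound libraries. Right, the median centred log2 difference, combination minus DMSO, at the regions called in all 4 libraries: in group 10 it is -0.28 in replicate 1 and -0.20 in replicate 2.

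The peak lists overlapped in the same uneven way. Of the peaks of combination replicate 1, 89.7% overlapped a peak of DMSO replicate 1, but 39.0% of the DMSO replicate 1 peaks had a partner. In replicate 2 the shares were 71.4% of the combination peaks and 72.8% of the DMSO peaks. For scale, 80.6% of DMSO replicate 1 peaks overlapped DMSO replicate 2 and 70.0% the other way round. The DMSO peaks of replicate 1 with no combination partner were the weaker ones, with a median of 15.4 tags in DMSO, against 36.6 for those with a partner. The same held in replicate 2, with 10.4 and 19.7 tags.

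Counting a site as lost when both DMSO libraries called it and neither combination library did, 8018 of 57132 regions were lost (14.0%). Counting it as gained in the opposite case, 851 of the 29218 regions called in both combination libraries were gained (2.91%). These counts have no test, and a site drops out of a list when its signal passes under the calling threshold, not only when binding ceases. Lost regions were weak, with median tag counts of 14.6 and 11.6 in DMSO replicates 1 and 2. Gained regions had medians of 10.0 and 16.6 in combination replicates 1 and 2. Only 1880 lost regions (23.4%) and 106 gained regions (12.5%) had at least 2 times the threshold in both libraries that called them.

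Without combination replicate 1 the lost count changed little and the gained count greatly. With that library left out, 8563 regions were lost against 18703 gained, since any peak of combination replicate 2 alone then counts as a gain. Both counts depended on the length of the lists: with every list shortened to its 30811 strongest peaks, 2146 regions were lost and 1889 gained. Combination replicate 2 lacked 15.0% of the 57132 regions that both DMSO libraries called. EPZ-6438 replicates 1 and 2 lacked 14.8% and 14.5%, and P5091 replicates 1 and 2 lacked 14.9% and 11.3%. Combination replicate 1 lacked 53.1%. The share missing from both replicates of a treatment was 14.0% for the combination, 7.46% for EPZ-6438 and 5.53% for P5091. These 3 comparisons share the DMSO libraries, and the first includes the library with the short list. The lost share ran from 12.1% on chromosome 18 to 17.5% on chromosome X.

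Lost sites were less well covered by HA-tagged FOXA1 than common ones. Lost and gained regions were also weaker, and no comparison at equal strength was made. Of the lost regions 45.6% overlapped a wild-type HA peak and 40.3% a K295A peak, and of the gained regions 42.3% and 38.0%. The 22305 regions missing from combination replicate 1 alone lay between these and the common regions, with 66.6% overlapping a wild-type HA peak. Of the lost regions, 1589 (19.8%) were called in all 4 single-compound libraries and 11.0% in none of them. Of the gained regions, 186 (21.9%) were called in all 4 and 62 (7.29%) in none. Over the common regions these shares were 92.0% and 0.0495%, and over the regions missing from combination replicate 1 alone 60.0% and 1.15%.

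EPZ-6438 alone and P5091 alone covered these sites in unequal shares. Neither EPZ-6438 library called 31.6% of the lost regions (2537), and neither P5091 library called 21.3% (1705). Both EPZ-6438 libraries called 54.9% of the gained regions (467), and both P5091 libraries called 30.4% (259). Over the common regions, both EPZ-6438 libraries called 96.08% and both P5091 libraries 95.02%. Singly, EPZ-6438 replicates 1 and 2 called 63.9% and 75.4% of the gained regions, and P5091 replicates 39.5% and 62.7%. Their lists held 77780 and 84423 peaks for EPZ-6438, and 68504 and 82825 for P5091. Calling thresholds were 6.20 and 8.13 normalized tags for EPZ-6438, and 7.83 and 6.66 for P5091. The part of list length and threshold in these shares was not tested. Nor were the shares themselves, as lost and gained regions were chosen by the same DMSO libraries with which the single compounds would be compared.

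Among the 10 strongest lost and gained regions, 2 pairs of a lost and a gained region lay next to each other. The lost region chr5:96270281-96270645 had no combination peak, against 112.6 and 177.1 tags in the DMSO libraries. The gained region chr5:96270735-96271029, 89 bases away, had 50.6 and 127.8 tags in the combination libraries and no DMSO peak. On chromosome 9, chr9:126440385-126440749 was lost (102.4 and 110.3 tags with DMSO) and chr9:126440957-126441252, 207 bases away, was gained (31.3 and 70.2 tags with the combination). Another 2 of the 10 strongest lost and gained regions had a peak near by, at 288 bases from chr10:71121122-71121486 (lost, 73.1 and 81.3 tags with DMSO) and at 247 bases from chr5:114038442-114038830 (gained, 26.3 and 80.5 tags with the combination). Over all regions such neighbours were the smaller part. Of the 8018 lost regions, 755 had a combination peak within 1000 bases and 7263 had none. Of the 851 gained regions, 141 had a DMSO peak within 1000 bases and 710 had none.

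Other sites of the same ranking stood alone. At chr2:189231857-189232221 there was no combination peak, against 87.8 and 58.1 tags with DMSO; EPZ-6438 had 25.2 tags in replicate 1 and no peak in replicate 2, and P5091 had 88.7 and 36.3 tags. P5091 replicate 1 was at the DMSO level there, and the lowest value of a called library was that of EPZ-6438. At chr11:46297571-46297935 the DMSO libraries had 92.1 and 49.9 tags, while EPZ-6438 was called in replicate 2 alone (39.0) and P5091 in replicate 1 alone (76.3). Among gains, chr6:110711039-110711416 had 18.8 and 67.9 tags with the combination, 54.4 and 48.8 with EPZ-6438, 37.2 and 29.7 under P5091, and no peak with DMSO. The next region called in any of the 4 libraries was 59720 bases away. At chr1:145039780-145040121 the combination had 26.9 and 60.0 tags, P5091 had 54.5 in replicate 2 alone, and neither EPZ-6438 nor DMSO had a peak.

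A few sites, chosen after their values were seen, show how differently the single compounds stood at lost and gained regions. At chr11:126256469-126256870 the combination had no peak, although EPZ-6438 had 39.8 and 17.9 tags, P5091 had 58.1 and 30.3, and DMSO had 41.7 and 69.7. At chr14:85827253-85827617 no library of the combination, EPZ-6438 or P5091 had a peak, against 40.2 and 40.1 tags with DMSO, but another region called in the 4 libraries lay 101 bases away. The same pattern was seen at chr16:78712176-78712547, with 37.3 and 31.9 tags with DMSO, where the next region was 2659 bases away. In the other direction, chr10:79258688-79258981 had 23.8 and 51.3 tags with the combination and a peak in no other FOXA1 library, with another region 304 bases away.

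Region by region tests on the tag counts as deposited called no region. limma, which pools the spread over regions, found 0 of 26272 past an adjusted p of 0.05 (0%) and 534 at an unadjusted p under 0.05 (2.03%), of which 522 were lower. This share cannot be set against the 5% expected without change, since regions share their libraries. The low signal of combination replicate 1 also widens the spread at regions in general (median residual SD 0.62, against 0.29 after centring). Without combination replicate 1, 48560 regions were tested, with a median of the region differences of -0.074. Without combination replicate 2, 26799 were tested, with a median of -1.21. In every fit that leaves out 1 library, 1 arm holds a single library, the spread comes from the 2 libraries of the other arm alone (1 residual degree of freedom per region, pooled over regions), and the lone library is assumed to vary like them. The calls of such fits are therefore a recount under that assumption and no independent check.

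After centring, 247 regions (0.940%) passed, 89 higher (0.339%) and 158 lower (0.601%) with the combination, and 3651 (13.9%) had an unadjusted p under 0.05 by limma. All 247 differed in the same direction in both replicates. With the replicate number as a block in the fit, 855 regions passed (3.25%), 338 higher (1.29%) and 517 lower (1.97%), and all 247 were among them. The blocked fit has 1 residual degree of freedom and takes the spread from the trend over regions alone, with no weight on a region's own spread. Without combination replicate 1, when the DMSO pair alone gives the spread, 48560 regions were tested and the median centred difference was -0.054. Quantile normalization, which gives every library the same distribution of values, left 2 calls, 1 higher and 1 lower, both among the 247. The dependence on site strength shown above bears on these calls: with the trend of the difference on mean signal removed, 42 regions passed, 27 higher and 15 lower, and with the block as well 390, 219 higher and 171 lower. Of the 247, 201 passed in that last fit, among them all 89 higher and 112 lower ones. With the 4 single-compound libraries also in the fit, 24242 regions were tested. With no block, 0 of them passed in limma (2768 had an unadjusted p under 0.05), and with the block 1025 did.

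Agreement between replicates was partial. Centred differences had the same sign in both replicates at 7846 regions above 0 (29.9%) and 8058 below 0 (30.7%), and opposite signs at 10349 (39.4%). Across regions the 2 replicates' differences correlated with Pearson's r = 0.342 and Spearman's rho = 0.321, a description only, since regions share their libraries. At least 2-fold apart in the same direction in both replicates were 269 higher regions (1.02%) and 83 lower ones (0.316%), against 23 that were 2-fold apart in opposite directions. As deposited, 1 region was at least 2-fold higher in both replicates and 680 at least 2-fold lower.

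**Figure D4:**
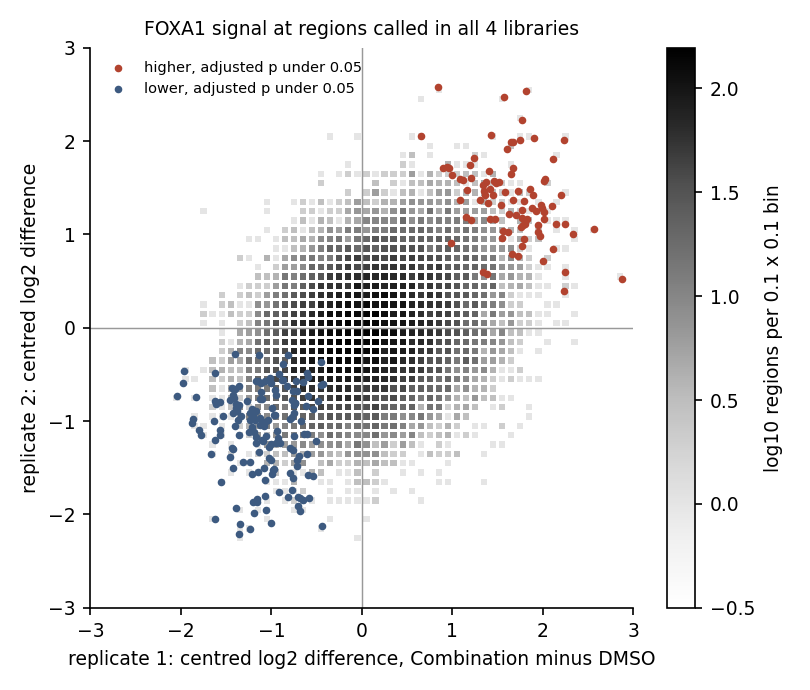
Each of the 26272 regions called in all 4 libraries by its centred log2 difference, combination minus DMSO, in replicate 1 (x) and replicate 2 (y); grey squares give the number of regions per bin on a log10 scale, red points the 89 regions higher and blue points the 158 regions lower at an adjusted p under 0.05. The grey cloud slopes upward only weakly (r = 0.342), and every coloured point lies in the upper right or lower left corner.

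The sites that stood lower with the combination were strong FOXA1 sites. Their median tag counts were 21.9 and 49.3 in combination replicates 1 and 2, against 129.45 and 103.6 in the DMSO libraries. Tag counts of both combination libraries, as deposited, were below both DMSO libraries at all 158, where 41.9% of all common regions were so. Of the 158, 157 (99.4%) overlapped a wild-type HA peak and as many a K295A peak.

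The sites that stood higher were weak FOXA1 sites in DMSO. Their medians were 21.3 and 46.6 in the combination libraries, against 15.4 and 16.3 in the DMSO libraries. Such a profile is favoured by the choice of regions, since only those called in combination replicate 1 were tested. In the weakest strength group that library called 13.8% of regions. The regions of that group called in all 4 libraries had a centred median difference of 0.66 in replicate 1 and 0.077 in replicate 2. Both combination libraries were above both DMSO libraries, as deposited, at 50 of the 89, where 0.757% of all common regions were so. Since the calls rest on the same values, these counts describe the 2 sets and do not test them. Of the 89, 77.5% overlapped a wild-type HA peak and 67.4% a K295A peak, and the median distance to the next region was 13957 bases, against 6676 over all common regions.

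The lowest site by the smaller of its replicate differences was chr9:110146885-110147249. It had 18.1 and 18.9 tags with the combination, 55.3 and 26.0 with EPZ-6438, 142.9 and 62.3 under P5091, against 147.7 and 80.1 with DMSO. Both combination libraries lay below all others, and P5091 lay near DMSO. The centred difference was -1.83 ± 0.32 (SE, limma adjusted p = 0.00023), lower in 2 of 2 replicates. At chr19:8271469-8271833 the combination had 16.3 and 27.6 tags, EPZ-6438 had 62.9 and 18.7, P5091 had 108.3 and 41.8 and DMSO had 128.0 and 87.7. Here EPZ-6438 replicate 2 lay within the range of the combination, and the centred difference was -1.60 ± 0.31 (limma adjusted p = 0.00084).

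The site chr3:176477688-176478052 gave the largest gap in tags among the 5 lowest. It had 37.5 and 52.9 tags with the combination, 97.8 and 63.4 with EPZ-6438, 232.2 and 122.3 under P5091, against 255.2 and 202.6 with DMSO. The 4 treatments kept one order in both replicates, the combination lowest, then EPZ-6438, P5091 and DMSO. Its centred difference of -1.66 ± 0.23 (limma adjusted p = 9.9e-08) was also past the threshold with the trend on signal removed (adjusted p = 0.0011) and in the 4 fits without 1 library, each with a single library in 1 arm.

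The other 2 lowest sites followed. At chr1:27126057-27126421 the combination had 18.1 and 34.7 tags, EPZ-6438 had 92.1 and 52.8, P5091 had 123.9 and 65.4 and DMSO had 131.6 and 91.1 (centred difference -1.42 ± 0.30, limma adjusted p = 0.0031). At chr14:91846280-91846775 the combination had 6.88 and 17.4 tags, EPZ-6438 had 42.9 and 18.7, P5091 had 36.5 and 36.3 and DMSO had 52.7 and 50.5 (-1.46 ± 0.36, limma adjusted p = 0.020). The value of 6.88 is the calling threshold of combination replicate 1. One more site had among the smallest p-values for a lower signal as deposited, chr5:153546986-153547350, with 11.9 and 10.3 tags with the combination, against 82.6 and 50.5 with DMSO. There both combination libraries were low, replicate 2 below replicate 1, and the centred difference was -1.78 ± 0.36 (limma adjusted p = 0.0021). As deposited, its adjusted p was 0.767, as for every named region that was tested. Without DMSO replicate 1 the adjusted p was over the threshold at 5 of these 6 sites, all but the one on chromosome 3, with values of 0.072 on chromosome 9, 0.09 on chromosome 19, 0.18 on chromosome 1, 0.14 on chromosome 14 and 0.14 on chromosome 5. The site on chromosome 14 passed in none of the fits without 1 library (adjusted p of 0.086 to 0.16), and the one on chromosome 5 did not pass without combination replicate 2 (0.19).

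The 5 highest sites were weak with DMSO and had more tags with the combination in both replicates. Like all tested sites they were called in combination replicate 1, which at weak sites favours high values in that library. At chr15:92882524-92882888 the combination had 21.3 and 33.9 tags, EPZ-6438 had 27.9 and 36.6, P5091 had 16.3 and 20.0 and DMSO had 11.0 and 7.55. The 7.55 lies near the calling threshold of DMSO replicate 2, 6.39 normalized tags. Both replicates of the combination exceeded both of DMSO as deposited, although combination replicate 1 was low over the genome. The centred difference was 2.12 ± 0.43 (SE, limma adjusted p = 0.0024), higher in 2 of 2 replicates. At chr18:28030822-28031194 the combination had 23.1 and 67.9 tags, EPZ-6438 had 42.9 and 57.7, P5091 had 12.4 and 35.1 and DMSO had 15.4 and 15.7 (1.96 ± 0.36, limma adjusted p = 0.00037). P5091 replicate 1 was below DMSO at this site, and both EPZ-6438 libraries were above it.

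The next sites were of the same kind. At chr4:81630615-81631004 the combination had 20.6 and 45.8 tags, EPZ-6438 had 28.8 and 29.3, P5091 had 10.4 and 20.0 and DMSO had 14.6 and 6.97 (2.17 ± 0.41). The 6.97 in DMSO replicate 2 also lies near the calling threshold of that library. At chr12:39285955-39286319 the combination had 18.1 and 53.7 tags, EPZ-6438 had 42.9 and 43.9, P5091 had 9.13 and 30.3 and DMSO had 10.2 and 14.5 (1.96 ± 0.39). Those 2 sites, with the ones on chromosomes 15 and 18 above, were also past the limma threshold in the 4 fits without 1 library. At chr1:185460724-185461202 the combination had 13.1 and 61.6 tags, EPZ-6438 had 21.7 and 47.2, P5091 had 11.1 and 31.5 and DMSO had 9.51 and 12.2 (2.00 ± 0.41), where without combination replicate 2 the adjusted p was 0.075. A sixth, chr8:56598010-56598374, had the smallest p for a higher signal after centring: 25.0 and 66.3 tags with the combination, against 21.2 and 11.0 with DMSO (2.02 ± 0.36, limma adjusted p = 0.00029, and 0.052 without DMSO replicate 2).

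**Figure D5:**
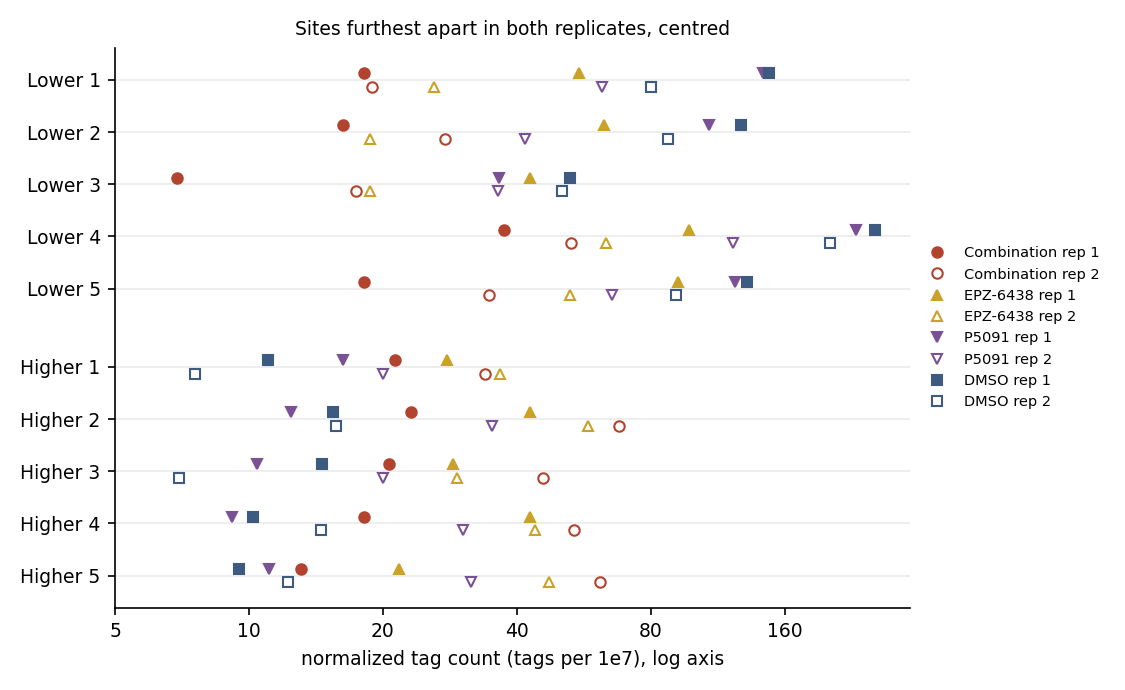
Normalized tag counts (tags per 1e7, log axis) of the 5 lowest and the 5 highest sites by the smaller of their centred replicate differences, with combination in red, EPZ-6438 in yellow, P5091 in purple and DMSO in blue; filled points are replicate 1 and open points replicate 2. From the top, the lower sites are those on chromosomes 9, 19, 14, 3 and 1 and the higher ones those on chromosomes 15, 18, 4, 12 and 1; at each lower site both combination points lie left of both DMSO points, and at each higher site right of them.

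The 2 sites with the smallest p for a higher signal as deposited were weaker. Their DMSO values lay near the calling thresholds of DMSO replicates 1 and 2, 8.04 and 6.39 normalized tags. At chr18:61676441-61676886 the combination had 10.0 and 20.5 tags, against 7.31 and 6.39 with DMSO, and the centred difference of 1.63 ± 0.57 did not pass (limma adjusted p = 0.13). At chr3:133429878-133430300 the combination had 10.0 and 38.7 tags, against 7.31 and 8.71 with DMSO (1.88 ± 0.49, limma adjusted p = 0.031). Without DMSO replicate 1 or 2 the second site did not pass, with limma adjusted p-values of 0.20 and 0.13.

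The 5 strongest DMSO sites were picked for their DMSO values, a choice that by itself favours a lower value with the combination, so their values are a description and their adjusted p no independent test. At chr2:242032793-242033157 the combination had 183.8 and 424.6 tags, EPZ-6438 had 540.5 and 453.7, P5091 had 658.8 and 519.3 and DMSO had 768.6 and 669.9. The combination libraries were the 2 lowest of the 8, and the centred difference was -0.70 ± 0.09 (limma adjusted p = 8.7e-08). The other 4 of the 5 strongest DMSO sites, chr17:77809861-77810225, chr15:69886986-69887350, chr8:52811545-52811909 and chr2:220263528-220263892, had centred differences of -0.41 to -0.67 and were also called lower. None of the 5 passed once the trend on signal was removed, when their differences were -0.0073 to -0.27 (limma adjusted p = 0.29 for the strongest). The strongest site was also called in the 4 fits without 1 library, while each of the other 4 lost its call in at least 1 of them. Without combination replicate 1 the site on chromosome 17 (adjusted p = 0.087) and the one on chromosome 8 (0.53) did not pass.

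EPZ-6438 alone and P5091 alone were compared at the called sites, since their 4 libraries took no part in the calls. Of the 158 sites lower with the combination, 136 (86.1%) had less signal with EPZ-6438 than with P5091 in both replicates, centred, against 29.9% of the 24175 common regions that all 4 of these libraries called. The median difference, EPZ-6438 minus P5091, was -0.46 and -0.43 in replicates 1 and 2 at those sites and -0.0012 and -0.019 over all. Of the 89 sites higher with the combination, 78 were called in all 4 single-compound libraries, and 69 of them (88.5%) had more signal with EPZ-6438 than with P5091 in both replicates, against 27.8% over all. There the medians were 0.86 and 0.50.

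Signal strength moved with this pattern for a part. Among the 2418 strongest of the 24175 regions 45.0% had less signal with EPZ-6438 than with P5091 in both replicates, with medians of -0.083 and -0.11. Among the 2417 weakest, 36.9% had more signal with EPZ-6438 in both replicates, with medians of 0.13 and 0.078. With sites chosen without combination replicate 1, in a fit with a single combination library, the shares were 70 of 79 (88.6%) for lower and 13 of 13 for higher sites, and with the replicate block 81.1% and 82.3%. These shares are given with no test, as sites share their libraries. Set beside DMSO at the lower sites, the median centred difference in replicates 1 and 2 was -1.06 and -1.0 for the combination, -0.51 and -0.82 for EPZ-6438 and -0.025 and -0.40 for P5091. At the higher sites it was 1.65 and 1.37 for the combination, 1.14 and 1.08 for EPZ-6438 and 0.28 and 0.62 for P5091. These last values share the DMSO libraries with the choice of sites and are a description.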

How the data were processed

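FOXA1 ChIP-seq peak lists of LNCaP cells were analysed, 2 of the combination and 2 of DMSO, each read from its own list. Per the labels' protocols, sheared chromatin was precipitated and sequenced single-end. Per the submitters' processing notes, Bowtie2, HOMER 4.2 and the build hg19 were used, with no role given. HOMER called peaks library by library, per the file headers, with a false discovery rate of 0.001 and 4-fold excess over both input and the surrounding 10 kb (Poisson p of 0.0001). Per the file headers, 1 input per treatment served both of its replicates. The deposited normalized tag count is a signal value, tags scaled to a library of 1e7. The deposited peak score served only for a stricter threshold (19, the pooled median). The deposited fold over input is the caller's ratio, and the deposited share of tags on the expected sides of the centre is a fraction. A whole-number total tag count for each peak was deposited for DMSO replicate 1 and combination replicate 2 only, and was used for a check: it equalled the normalized value times the library total, within 0.1 tag or 1%, for 97.8% and 100% of peaks. Depth per library is given in the results.

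Peaks sharing at least 1 base were merged, and where a library had several peaks in a region the highest was used. The tests were limma (3.58.1, R 4.3.3, trend on, Benjamini-Hochberg) on log2 (tag count + 1) at regions called in all 4 libraries, as deposited and centred, and exact permutation tests over libraries. The limma fit has 2 residual degrees of freedom per region, the blocked fit and the fits without 1 library have 1, and all rest on the spread pooled over regions. Merging and the limma fit were tested on simulated data with known answers. Named regions were the 5 highest and 5 lowest by the smaller replicate difference, the 5 strongest lost, gained and DMSO regions, and the 2 smallest p-values in each direction of each fit, and exceptions are marked. Members, lists and tests were chosen with earlier results of these data known.

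Replicate numbers come from the titles. Deviations of replicate 1 from its group mean correlated between all 6 pairs of the 4 FOXA1 groups (r 0.148 to 0.488). These r cover 24242 regions with a peak in each of the 8 lists, when all 8 were merged. The lowest r, 0.148, was that of the combination with DMSO, the groups compared here. The combination had 0.224 with EPZ-6438 and 0.219 with P5091. The numbers were taken to pair the libraries, and blocked fits (replicate number as a term) stand beside the results they change. Alternatives were a pseudocount of 5, other normalizations, stronger regions only, a score threshold, all 8 libraries, equal list lengths and leaving out each library.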

Additional observations from a re-analysis of the deposited data

How the results depend on the processing

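With the replicate number as a block, that is, within pairs of equal number, the centred count of 247 regions became 855, the differences of replicate 2 alone (0.029 for log2 peak number, 0.016 for the median tag count) were opposite in sign to the means over both, and the as deposited count remained 0. Without 1 library each, the log2 difference in peak number was -1.30 to 0.13, the median difference -1.27 to -0.056, lost regions 8563 to 30299, gained regions 1539 to 18703, as deposited calls 0 to 16794 and centred calls 62 to 171. Lost regions numbered 2146 and gained 1889 with lists of equal length, and gained regions 73 at the stricter score. Centred calls numbered 111 of 13143 among the regions above the median of mean signal and 0 of 24242 with all 8 libraries. Of the 26272 regions, 2 were called after quantile normalization, 42 with the trend on signal removed and 390 with that and the block. Added after seeing the data, the block gave 1025 with all 8 libraries and 664 among the stronger regions, the median in replicate 1 per 300 bases was -0.97, and the share of higher sites with EPZ-6438 above P5091 was 100% (13 of 13) without combination replicate 1. The count of regions 2-fold apart in the same direction in both replicates was 352 centred, and recounted over all regions it was 151 with a pseudocount of 5, 192 with the trend removed and 681 as deposited, and 100 among the stronger regions alone. The share of higher sites among centred calls was 36.0% in the fit reported, 11.7% among stronger regions, 16.3% without combination replicate 1 and 64.3% with the trend removed; the cause of these shifts was not tested.

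Of 19 named regions tested, 18 were called after centring, 11 of them also with the trend removed and 1 after quantile normalization. Over 242 alternative values none changed direction, which is no independent check. Most of the regions were picked for these same values, and the alternatives reuse the libraries. The strongest DMSO site had the highest tag count of each of the 4 libraries. Quantile normalization gives the highest region of every library the same value. Its difference there, -1.8e-15, was therefore fixed in advance and says nothing about the site. A count test on tags (edgeR) was not run, because whole-number counts are deposited for 2 of the 4 libraries. Peak lists hold no value for a site that was not called (stated threshold 10 or 11 tags), so weak sites cannot be compared and a loss there was not detectable at this depth. Library-level tests of 2 against 2 cannot go below an exact p of 0.333.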
